A study of Mus musculus with 6 samples.

Results

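The 80 genes described here encode the proteins of the cytosolic ribosome, and they were measured in eosinophils from the mouse small intestine. The 3 libraries with GM-CSF came from cultures of these cells kept for 4 hours with the cytokine at 10 ng/ml, and the 3 untreated libraries from cultures without it. All cells came from the lamina propria of wild-type BALB/c mice, and each condition was cultured in triplicate. The labels do not tell whether the cultures came from separate animals, so every p-value measures the spread between these cultures, which may be technical. The members were found by symbol: Rpl or Rps with a number, Rplp0, Rplp1, Rplp2 and Rpsa, without kinases and pseudogenes, and averaging 1 FPKM or more across the 6 libraries. FPKM is the number of sequenced fragments of a transcript relative to its length and to the depth of its library. Of 84 symbols that match, 80 reached this mean, 47 of the large subunit and 33 of the small subunit, out of 10136 genes tested and 23664 genes in all.

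The rule used the mean level over all libraries, and every member other than Rpl30 stood at 1 FPKM or more in each library. Just inside it were Rps4y2, with a mean of 1.96 FPKM, and Rpl30, with 2.63 FPKM. Just outside it were Rpl39l, with 0.230 FPKM, and Rpl10l, with 0.0119 FPKM. Rpl26 and Rpl38 are listed at less than 0.001 FPKM in every library and were left out with them. Genes that every cell uses can be listed near 0 where an estimate failed, so nothing is said here of the level of Rpl26, Rpl38 or Rpl30.

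Ribosomes are built from a small subunit, which reads the messenger RNA, and a large subunit, which joins the amino acids, and most ribosomal proteins are present in equal numbers in the finished particle. Messenger RNAs of ribosomal proteins typically begin with a C followed by a run of pyrimidines, the 5′ terminal oligopyrimidine (TOP) motif. Their translation is regulated by the kinase mTOR and the RNA-binding protein Larp1. GM-CSF is a cytokine that keeps eosinophils alive in culture and activates them. In bulk libraries, fewer cells of a type and less RNA per cell cannot be told apart.

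Windows from 20 bases before to 20 bases after an annotated start are shown for 3 of the members that fell most and for Rps6, the substrate of S6 kinase, Rps9 and Rps27l. Capitals mark the longest uninterrupted run of C and T in the window, wherever it lies, and the annotated start is base 21.
Rpl12: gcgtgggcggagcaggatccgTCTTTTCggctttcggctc
Rps24: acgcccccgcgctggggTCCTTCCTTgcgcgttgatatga
Rps12: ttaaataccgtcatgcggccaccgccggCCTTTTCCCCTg
Rps6: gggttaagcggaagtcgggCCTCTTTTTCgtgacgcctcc
Rps9: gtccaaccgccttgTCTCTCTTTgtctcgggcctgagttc
Rps27l: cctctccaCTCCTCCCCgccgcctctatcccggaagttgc
The sequences are from RefSeq on GRCm38.p6, each 5′ to 3′ on the strand of its gene. Rpl12 lies at chr2:32961692-32961731 and Rps24 at chr14:24490658-24490697, both on the plus strand. Rps12 lies at chr10:23787190-23787229 and Rps6 at chr4:86857348-86857387, both on the minus strand. Rps9 lies at chr7:3704021-3704060 and Rps27l at chr9:66946066-66946105, both on the plus strand. The first 4 genes fell and Rps9 and Rps27l did not pass the test, and the longest runs of the 6 windows are 7 to 11 bases long. Counted from the start as base 1, the run begins at base −3 in Rps24, −1 in Rps6, −6 in Rps9, 2 in Rpl12 and 9 in Rps12. In Rps27l it begins at base −12 and ends before the start, so it is no part of the message as annotated. Rps24 and Rps27l each have another annotated start, which is not shown, with longest runs of 7 and 4 bases.

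RefSeq gave a sequence for 59 of the 80 members, with 71 annotated starts. A run of at least 8 C or T within these 20 bases on either side was found at 30 of the 71 starts, or 42.3%, against 16% of the 32851 starts of all genes. Among starts of members that fell, 16 of 47 held such a run (34%), and among starts of members that did not pass, 14 of 24 (58.3%). The letters CCGGAAGT, on either strand of the 300-base sequence from 250 bases before to 50 after the start, were present at 11 of the 71 starts (15.5%), against 3.89% of all starts. They were present at 7 of 47 starts of members that fell (14.9%) and at 4 of 24 of the others (16.7%). Several genes have more than 1 start, and these matches are a description of the letters only.

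With GM-CSF the ribosomal protein genes stood lower almost as a whole, each by a modest amount. Of the 80 members, 51 fell (63.75%) and 0 rose at an adjusted p under 0.05 (limma, two-sided, Benjamini-Hochberg over all genes tested), where 14.2% of all genes tested fell and 7.61% rose. At an unadjusted p under 0.05, Rpl3l was the only member that stood higher with GM-CSF. The members that fell were between 8.15% and 27.3% lower in FPKM, with a median of 16.9%. The log2 fold change, always GM-CSF over untreated on the log2(FPKM + 1) scale, was below 0 for 78 of 80 members. Its median was −0.24 over the members and −0.05 over all genes tested. All 3 GM-CSF values lay below all 3 untreated values in 64 of 80 members, against 26.0% of all genes tested, and above them in 1 member, Rpl3l.

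The levels summed over the members showed the same separation by library. The sum was 24929.9, 24995.1 and 23905.3 FPKM with GM-CSF, against 28356.7, 29680.7 and 28958.4 FPKM in untreated libraries. The means were 24610 ± 611 and 28999 ± 663 FPKM (SD, n = 3 each), a difference of 15.1% of the untreated mean. The groups did not overlap, and the lowest untreated sum stood above the highest GM-CSF sum by several times the SD of either group. As a share of all FPKM in a library, the members took 5.36%, 5.39% and 5.20% with GM-CSF, against 6.05%, 5.95% and 6.17% untreated. Per library, 78, 75 and 78 of the 80 members stood below the untreated mean with GM-CSF, against 61, 22 and 38 in untreated libraries.

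Depth, from the deposited coverage, was 0.890, 1.32 and 0.820 mapped gigabases with GM-CSF, against 0.939, 0.974 and 0.917 untreated. The eosinophil markers Siglec5, the gene of Siglec-F, and Ccr3 averaged 170.4 and 251.3 FPKM with GM-CSF, against 170.1 and 289.0 FPKM untreated, and did not pass. Of 8 eosinophil markers 4 fell (Alox15 by 65.9%, Il5ra by 55.4%, Epx by 35.4% and Cebpe by 34.4% in FPKM) and Gata1 rose (0.35), and the list summed to between 741.6 and 844.2 FPKM with GM-CSF, against 1129 to 1314 FPKM untreated. The lists for epithelial cells and lymphocytes summed to less as well. B and plasma cell markers summed to between 16.7 and 17.7 FPKM with GM-CSF, against 31.0 to 38.5 FPKM untreated, and 5 of 5 tested fell. T cell markers summed to between 16.6 and 19.7 FPKM, against 30.0 to 31.2 FPKM untreated, with 4 of 6 lower past the threshold, and epithelial markers to between 60.8 and 76.6 FPKM, against 94.6 to 104.0 FPKM untreated, with 5 of 10. Of 10 macrophage and dendritic cell markers only 4 reached the limit to be tested, and 1 fell, Csf1r. This list summed to between 507.4 and 578.9 FPKM, against 447.0 to 494.4 FPKM untreated. Most of that sum is Emr1, with 397.6, 408.7 and 472.9 FPKM, against 372.7, 345.2 and 385.5 FPKM untreated, which did not pass (0.21, adjusted p = 0.109). Of all genes tested 14.2% fell and 7.61% rose. From the 7 B and plasma cell, 9 T cell and 12 epithelial markers listed, those averaging under 1 FPKM were not tested. No marker in these lists was at 0 in all libraries, and their part in the fall of the ribosomal protein genes was not tested.

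Both subunits showed the fall. Of the large subunit genes 29 of 47 fell, with a median log2 fold change of −0.24, and of the small subunit genes 22 of 33 fell, also with a median of −0.24. Large subunit genes summed to 12525 ± 321 FPKM with GM-CSF, against 14889 ± 616 FPKM untreated, and small subunit genes to 12086 ± 326 FPKM, against 14109 ± 200 FPKM (SD, n = 3 each). The ratio of the summed large to the summed small subunit genes was 1.018, 1.052 and 1.039 with GM-CSF, against 1.004, 1.078 and 1.085 untreated. These ranges overlap. Over the 75 members that were measured evenly, as defined further on, the ratio was 1.112, 1.103 and 1.084 with GM-CSF, against 1.088, 1.079 and 1.099 untreated, so the small difference between the group means takes the opposite sign there.

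**Figure D1:**
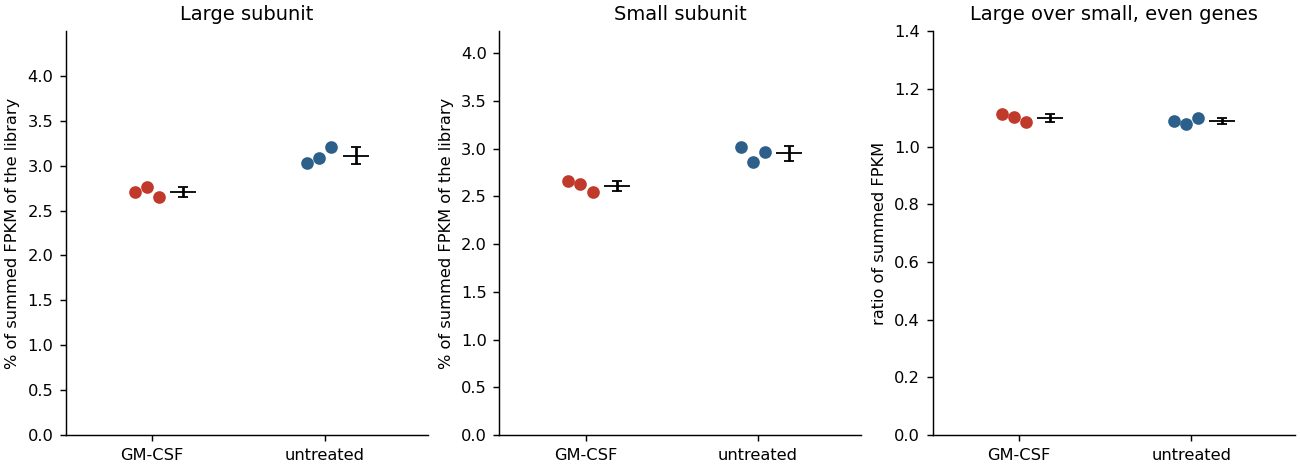
Share of a library's summed FPKM taken by large subunit genes (left, %) and by small subunit genes (middle, %), and the ratio of the summed large to the summed small subunit FPKM over 75 evenly measured genes (right), for 3 GM-CSF libraries (red) and 3 untreated libraries (blue). Points are libraries and black marks the mean ± SD; both shares lie lower in every GM-CSF library, while the ratios of the groups overlap.

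The calls depend on how libraries are scaled, and the direction does not. With median-of-ratios factors 31 members fell, with every library set to one total 29, with quantile normalization 36 and with factors from the other genes alone 32, and 78 of 80 log2 fold changes stayed below 0 in each case. Over all genes, 771 rose and 1437 fell as deposited (14.2%). With median-of-ratios factors 1006 rose and 1040 fell (10.3%), with one total 804 and 939 (8.32%), with quantile normalization 943 and 1114 (11%), and with factors from the other genes 994 and 1050 (10.4%). Under these settings the members' median ran from −0.19 to −0.18 and that of all genes from −0.02 to 0.00. The 24 members that fell under every scaling were 12 of the large and 12 of the small subunit, among them Rpl3, Rpl4, Rpl10a, Rpl12, Rpl17, Rpl39, Rps3, Rps3a1, Rps4x, Rps7, Rps12, Rps19 and Rps24. Rps27a was also among them, but its values are uneven, as given further on. Leaving out GM-CSF replicate 1 left 32 members that fell, and leaving out untreated replicate 2 left 31.

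**Figure D2:**
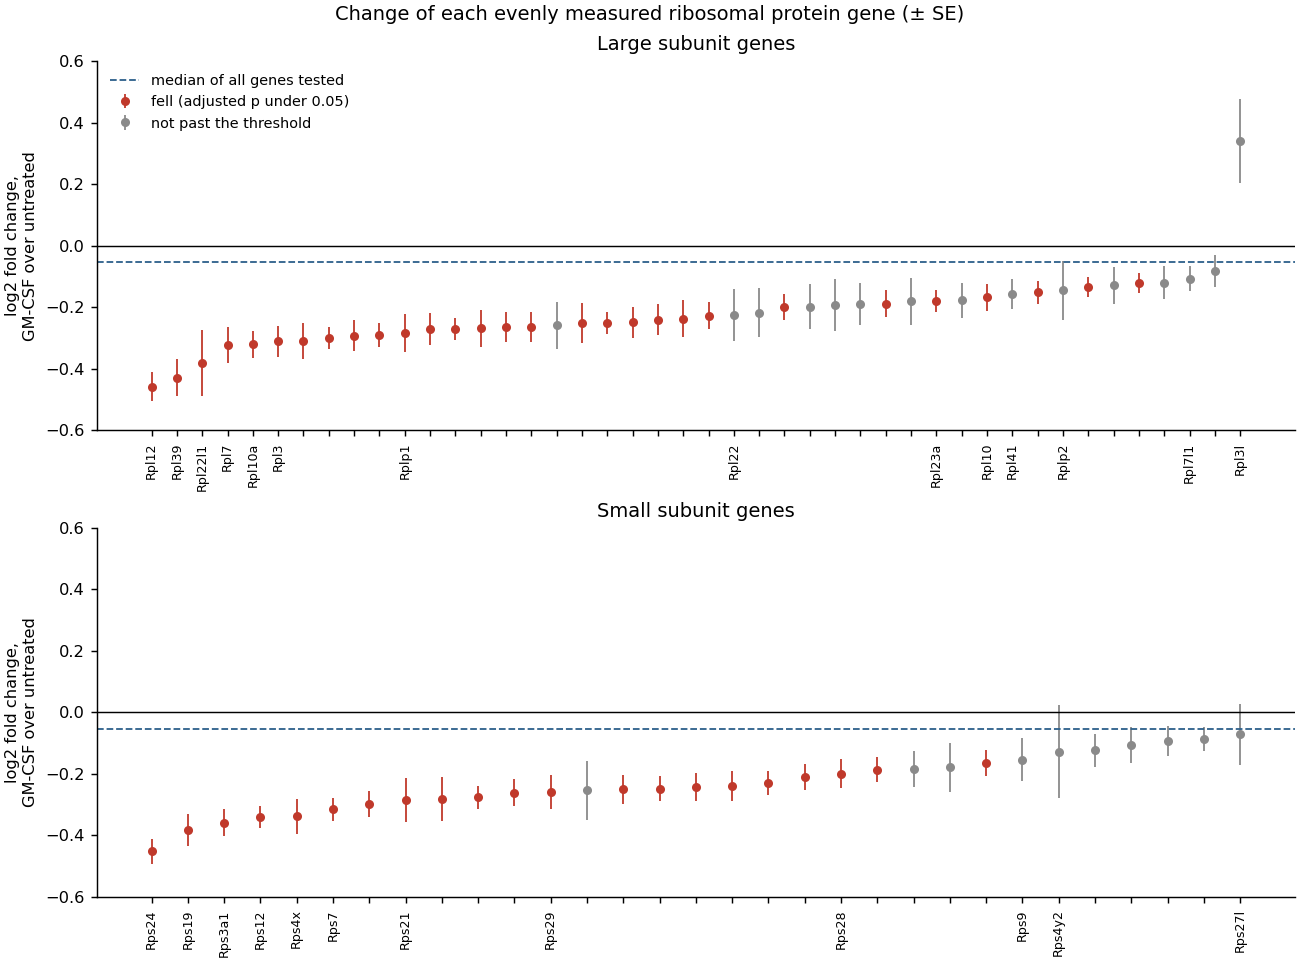
Log2 fold change (GM-CSF over untreated, vertical axis) with its SE for the 44 large and 31 small subunit genes that were measured evenly, ordered by size; the largest falls, the most abundant genes and the paralogs with their partners carry symbols. Red genes fell at an adjusted p under 0.05, grey genes did not pass, and the dashed line is the median of all genes tested (−0.05); all points other than Rpl3l lie below 0.

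Several of the largest falls were in single proteins with distinct places on the ribosome. Rpl12, at the base of the stalk that recruits translation factors, had 288.0, 292.7 and 271.5 FPKM with GM-CSF, against 393.7, 374.1 and 404.6 FPKM untreated. The groups lie far apart, and the log2 fold change was −0.46 (SE 0.05, limma adjusted p = 0.00112). Of the acidic proteins of the stalk itself, 1 of 2 passed the test. Rplp1 had 748.9, 728.9 and 661.1 FPKM with GM-CSF, against 832.1, 914.6 and 856.2 FPKM untreated, and fell by 0.28 on the log2 scale (adjusted p = 0.0202). Its partner Rplp2 had 631.6, 694.0 and 551.3 FPKM, against 635.8, 736.7 and 698.2 FPKM untreated, which overlap (log2 fold change −0.15, adjusted p = 0.341). Rplp0, which anchors both to the ribosome, fell by 0.27 (adjusted p = 0.0228).

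Rps24, a small subunit protein needed to process the precursor of its ribosomal RNA, had 296.7, 284.3 and 297.0 FPKM with GM-CSF, against 405.3, 410.3 and 387.3 FPKM untreated. It fell by 0.45 on the log2 scale (SE 0.04, adjusted p = 0.00056), and 1 of its 3 transcripts, of 837 nt, carried between 96.4% and 99.0% of its FPKM in the GM-CSF libraries and between 97.3% and 97.9% in the untreated ones. Rps19, the protein most often mutated in human Diamond-Blackfan anaemia, had 179.7, 193.2 and 173.9 FPKM, against 227.9, 242.4 and 242.7 FPKM untreated (log2 fold change −0.38, SE 0.05, adjusted p = 0.00326). In both genes every GM-CSF culture lay below every untreated culture by more than the range within either group. Rps7, which also takes part in processing of the small subunit RNA, had 183.3, 183.0 and 186.0 FPKM, against 223.0, 236.6 and 229.0 FPKM untreated, and fell by 0.32 (adjusted p = 0.00178).

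Rpl39, a short protein that lines the tunnel through which the new chain leaves, had 273.4, 307.7 and 310.5 FPKM with GM-CSF, against 389.3, 414.4 and 395.9 FPKM untreated. It fell by 0.43 on the log2 scale (SE 0.06, adjusted p = 0.00347). Rpl4 and Rpl17, which also reach into this tunnel, fell by 0.25 (adjusted p = 0.00406) and 0.30 (adjusted p = 0.00173). Rpl23a, at the mouth of the tunnel where the signal recognition particle docks, had 598.3, 608.1 and 583.7 FPKM, against 670.8, 678.4 and 679.8 FPKM untreated, and fell by 0.18 (adjusted p = 0.0131).

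Of the proteins that touch the messenger or the decoding site, Rps3, at the entry of the messenger channel, fell by 0.28 (adjusted p = 0.00345) and Rps23, which forms part of the decoding centre, by 0.25 (adjusted p = 0.0118). Rps2, beside the same entry, had 258.7, 267.9 and 253.1 FPKM with GM-CSF, against 275.8, 281.1 and 271.1 FPKM untreated. Its groups do not overlap, yet the log2 fold change of −0.09 did not pass (adjusted p = 0.163). Rps6, the substrate of S6 kinase, had 188.3, 195.5 and 193.9 FPKM, against 233.6, 217.5 and 218.9 FPKM untreated, and fell by 0.21 (adjusted p = 0.0141).

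Rpl5 and Rpl11 bind the 5S ribosomal RNA and, outside the ribosome, the p53 regulator Mdm2. Rpl5 had 93.3, 92.9 and 100.1 FPKM with GM-CSF, against 114.7, 110.4 and 120.9 FPKM untreated, and fell by 0.27 (adjusted p = 0.0115). Rpl11 had 397.0, 429.8 and 389.7 FPKM, against 413.9, 441.5 and 432.1 FPKM untreated, which overlap (log2 fold change −0.08, adjusted p = 0.311). The difference between both changes was not tested. Rplp0, Rpl4, Rpl5, Rpl11, Rpl17, Rps2, Rps3, Rps6 and Rps23 were chosen for their roles after their values were seen. Of those that fell, Rplp0 and Rpl5 passed under 3 of the 4 scalings, Rps23 under 2 and Rps6 under 1.

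The other members with the largest falls were Rps3a1, Rps12, Rps4x, Rpl7 and Rpl10a, with log2 fold changes between −0.36 and −0.32 and no overlap between groups. Rps3a1 had 308.6, 326.7 and 337.1 FPKM with GM-CSF, against 411.3, 420.2 and 415.8 FPKM untreated. Rps12 had 495.9, 497.1 and 513.4 FPKM, against 631.4, 648.8 and 627.8 FPKM untreated. Both separate the groups fully (adjusted p = 0.00203 and 0.00121). Rpl10a had 119.6, 122.7 and 130.7 FPKM, against 155.3, 157.2 and 154.0 FPKM untreated (adjusted p = 0.00316). Rpl7 fell by 0.32 (adjusted p = 0.00929) but did not pass after quantile normalization (−0.26, adjusted p = 0.0654).

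Among the most abundant members some passed and others did not. Rps29 was the highest of all in deposited FPKM, with a mean of 1572 FPKM. It had 1419, 1494 and 1379 FPKM with GM-CSF, against 1637, 1816 and 1685 FPKM untreated (log2 fold change −0.26, adjusted p = 0.019). Rps9 had 1228, 1300 and 1160 FPKM, against 1260, 1442 and 1406 FPKM untreated, which overlap (−0.15, adjusted p = 0.168). Rps21 fell by 0.29 (adjusted p = 0.0311) and Rps28 by 0.20 (adjusted p = 0.0268). Among large subunit genes Rpl10, which completes the catalytic site late in assembly, had 763.3, 779.9 and 786.6 FPKM with GM-CSF, against 910.6, 874.4 and 835.2 FPKM untreated, and fell by 0.17 (adjusted p = 0.0383). Rpl41 had 920.6, 925.9 and 860.7 FPKM, against 968.9, 1020 and 1031 FPKM untreated, with no overlap but an adjusted p of 0.0606 (−0.16). Of these, the calls of Rps29, Rps21, Rps28, Rpl10, Rplp1 and Rpl23a were lost in 7, 9, 11, 12, 6 and 6 of 21 alternative settings, and that of Rpl41 was gained in 3.

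Paralogs of ribosomal proteins, which can replace a partner in some tissues, were few and mostly low. Rpl22l1 had 37.5, 41.8 and 36.8 FPKM with GM-CSF, against 46.4, 59.7 and 46.8 FPKM untreated. It fell by 0.38 on the log2 scale with a wide SE of 0.11 (adjusted p = 0.0479), and this call was lost in 12 of 21 alternative settings, including each one that left out a library (adjusted p between 0.0612 and 0.13). Its partner Rpl22 had 26.7, 28.4 and 22.5 FPKM, against 30.2, 30.3 and 30.3 FPKM untreated (−0.22, adjusted p = 0.115). Neither the 2 changes nor the ratio of the pair was tested against each other.

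Rpl3l, known as a paralog of Rpl3 in heart and skeletal muscle, had 3.09, 4.58 and 3.36 FPKM with GM-CSF, against 2.89, 2.83 and 2.30 FPKM untreated. It stood higher in each GM-CSF library but did not pass (0.34, adjusted p = 0.136). Rpl3 had 90.8, 90.3 and 90.4 FPKM, against 112.2, 105.9 and 119.9 FPKM untreated, and fell by 0.31 (adjusted p = 0.00681). Rpl7l1 had between 34.2 and 36.2 FPKM with GM-CSF, against 37.5 to 38.4 FPKM untreated (−0.11, adjusted p = 0.116).

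Rps27l, a p53 target in human cells, had 88.7, 103.2 and 88.0 FPKM with GM-CSF, against 87.2, 109.6 and 98.0 FPKM untreated, which overlap (−0.07, adjusted p = 0.668). Rps4x, the X-linked form of its protein, had 274.4, 296.9 and 313.8 FPKM, against 383.2, 361.2 and 374.2 FPKM untreated, and fell by 0.34 (adjusted p = 0.00753). Rps4y2, named Rps4l in RefSeq, had 1.75, 2.02 and 1.66 FPKM, against 1.87, 1.65 and 2.82 FPKM untreated (−0.13, adjusted p = 0.606). Rpl39l, a form known from testis, was below the limit of 1 FPKM with 0.176 ± 0.129 FPKM, against 0.283 ± 0.104 FPKM untreated (SD, n = 3 each).

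The 5 members Rpl34, Rps27, Rpl30, Rps27a and Rpl13a were not measured evenly across libraries and are given apart. A member is called uneven where its FPKM differed by more than 2 times within a group, or where its FPKM relative to the midpoint of its own deposited interval differed by more than 1.1 times between libraries. This limit was chosen after the values were seen. Rpl34 had 10.4, 39.6 and 8.18 FPKM with GM-CSF, against 3.85, 482.2 and 387.8 FPKM untreated. Its near copy Rpl34-ps1 had 539.4, 518.4 and 502.0 FPKM, against 631.6, 169.2 and 234.0 FPKM untreated. The level moved from one entry to the other between libraries of the same group, while their sum was steady. Together they had 549.8, 558.0 and 510.2 FPKM with GM-CSF, against 635.5, 651.4 and 621.8 FPKM untreated, which is 15.2% lower and close to the members' median.

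Rps27a, which is made as a fusion with ubiquitin, had 439.5, 451.8 and 441.2 FPKM with GM-CSF, against 578.3, 614.2 and 614.2 FPKM untreated. Its fall of 0.44 (adjusted p = 0.000639) is present in the deposited FPKM and not in the deposited intervals. In all 3 untreated libraries the FPKM stood at 1.34 times the midpoint of its own interval, and in the 3 GM-CSF libraries at 0.99 times. The midpoints were 442.6, 453.6 and 444.8 with GM-CSF, against 431.9, 456.9 and 459.0 untreated, and with midpoints in place of FPKM the log2 fold change was −0.01 (adjusted p = 0.922).

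Rps27 had 824.9, 345.3 and 239.9 FPKM with GM-CSF, against 752.1, 98.6 and 156.9 FPKM untreated, so it spread more within each group than between them (adjusted p = 0.52). Rpl13a stood at 0.99 times its midpoint in GM-CSF replicate 2 and at 1.20 times in the other libraries, and did not pass (−0.20, adjusted p = 0.068). Without these 5 genes, 50 of 75 members fell, 0 rose, and the median log2 fold change was again −0.24.

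**Figure D3:**
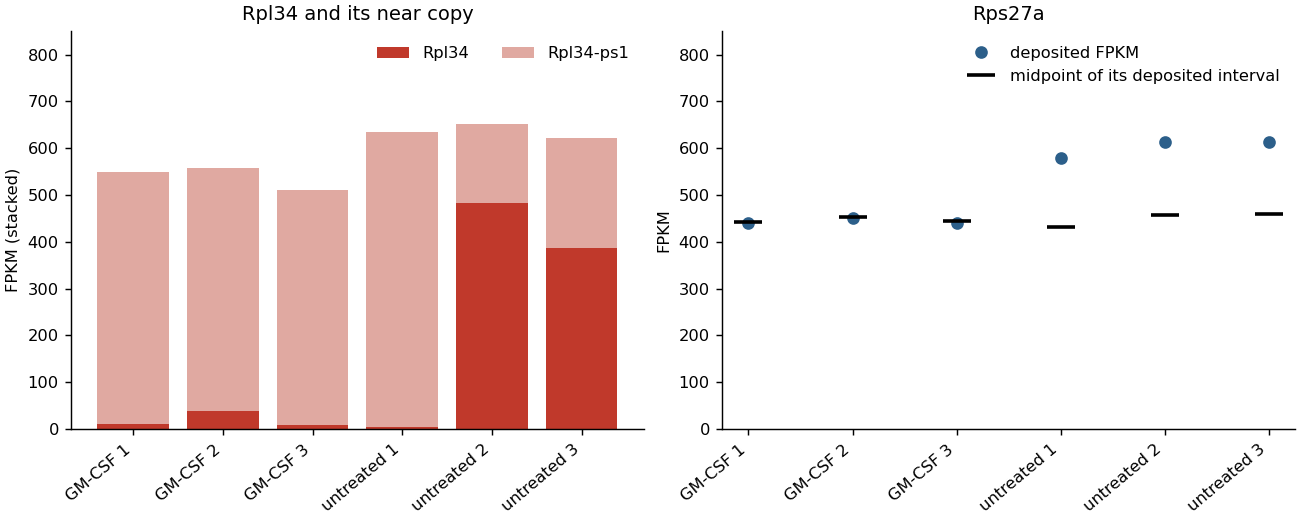
Left, FPKM of Rpl34 and of its near copy Rpl34-ps1, stacked, in 3 GM-CSF and 3 untreated libraries. Right, the FPKM of Rps27a (points) and the midpoint of its deposited interval (bars); the Rpl34 entry is high in untreated libraries 2 and 3 only, and the Rps27a points leave their midpoints in the 3 untreated libraries.

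Most members stood lower over the range of lengths and levels, but the calls were not spread evenly over levels. Of the members averaging under 100 FPKM only Rpl22l1 fell, and its call was lost in 12 of 21 alternative settings. Rpl3l stood higher, and the longest members, Rps15a and Rpl7l1, did not pass. The members' transcripts ran from 327 to 5134 nt, with a median of 717.5 nt. Across the 75 evenly measured genes the log2 fold change had a Pearson r of 0.08 and a Spearman rho of −0.01 with log2 length, and an r of −0.34 and a rho of 0.00 with log2 mean FPKM. These correlations are across genes, which share the libraries and are not independent, and in the plot of change against level the genes at the low end are Rps4y2, Rpl3l and Rps15a. Of the shorter 40 of all 80 members 22 fell (median −0.23), and of the longer 40, 29 fell (median −0.24). Of the more abundant 40 members 26 fell (median −0.23), and of the less abundant 40, 25 fell (median −0.24).

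**Figure D4:**
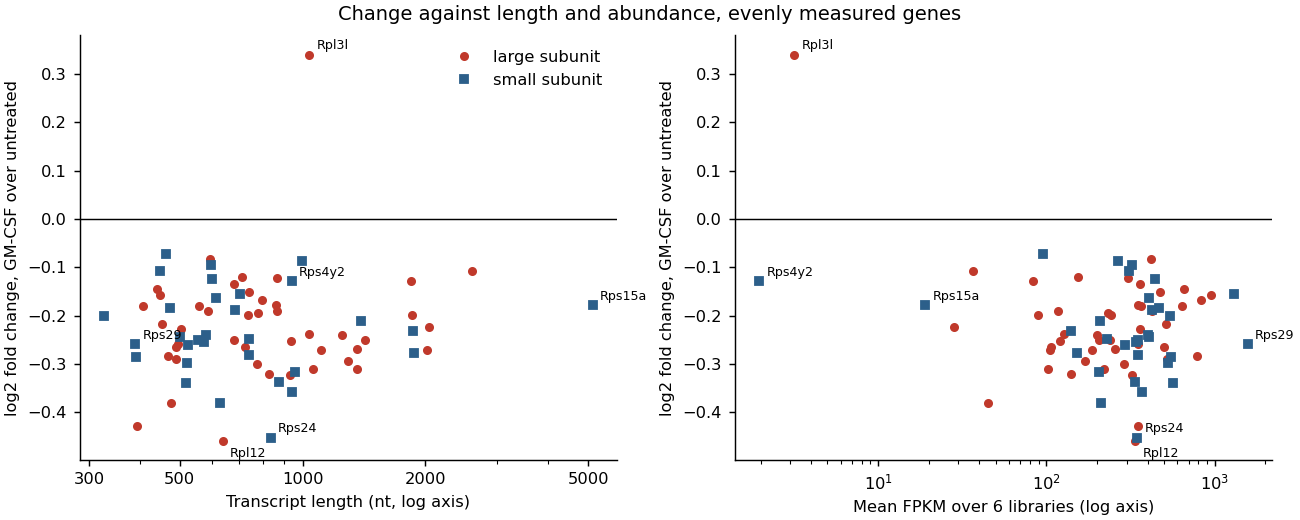
Log2 fold change (GM-CSF over untreated) of 75 evenly measured genes against transcript length (left, log axis) and against mean FPKM over 6 libraries (right, log axis); circles are large and squares small subunit genes. Genes of all lengths and levels lie below 0, and Rpl3l is the only point above 0.

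Other short genes and other abundant genes were described in the same fit. Of 909 other genes of 327 to 1000 nt, 114 fell and 46 rose (median −0.07). Of 731 other genes that averaged 100 FPKM or more, 172 fell and 127 rose (median −0.05). Of 147 genes that meet both limits of 1000 nt and 100 FPKM, 34 fell and 12 rose (median −0.05). For 62 of the members the FPKM stood above the midpoint of its own interval by more than 1.1 times in every library, up to 2.53 times on average for Rps28, of 327 nt. Levels of members relative to one another carry this factor, and so does their rank by level. By midpoints Rps9 (833.9 to 1036) stood above Rps29 (674.6 to 883.2) in every library. Comparisons of a gene between groups carry the factor nearly equally, apart from Rps27a, Rpl13a and Rpl30.

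Of ribosomal proteins whose symbols fall outside the rule, 3 are given here, and each had a log2 fold change below 0. Gnb2l1, the scaffold Rack1 on the small subunit, had 149.2, 153.9 and 152.8 FPKM with GM-CSF, against 182.1, 181.9 and 190.3 FPKM untreated, and fell by 0.28 (adjusted p = 0.00288). Fau, the fusion that gives Rps30, and Rpl36al, a paralog of Rpl36a, did not pass (−0.16, adjusted p = 0.126, and −0.17, adjusted p = 0.16).

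Elongation factors and other messages known to carry a TOP motif also stood lower in part. Of 18 tested, 9 fell (50%) and 1 rose (5.56%), against 14.2% and 7.61% of all genes tested, with a median of −0.16. Nap1l1, a histone chaperone, fell by 0.32 (adjusted p = 0.00567), Eif3f, a subunit of the initiation factor eIF3, by 0.29 (adjusted p = 0.00558), and Eef1b2, which reloads elongation factor 1 with GTP, by 0.29 (adjusted p = 0.00323). Vim, the intermediate filament vimentin, had 109.8, 112.2 and 115.0 FPKM with GM-CSF, against 86.4, 75.2 and 81.9 FPKM untreated, and rose (0.47, adjusted p = 0.00217). Under the 4 scalings between 3 and 6 of this list fell (16.7% to 33.3%), against 8.32% to 11% of all genes tested. Its median ran from −0.12 to −0.10.

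Of 33 other genes listed as initiation factors by name and tested, 3 fell (Eif2b4, Eif4g3 and Eif4a2), or 9.09% against 14.2% of all genes tested. From this list 1 rose, or 3.03% against 7.61%, and the median of −0.03 took the other sign under 3 of the 4 scalings. The one that rose was Eif5a, which helps ribosomes through difficult peptide bonds, with 739.4, 724.5 and 693.1 FPKM with GM-CSF, against 241.1, 253.2 and 253.0 FPKM untreated (1.53, adjusted p = 6.3e-06). Mitochondrial ribosomal proteins, which build a separate ribosome inside the organelle, took 0.321% ± 0.013 of a library's FPKM with GM-CSF and 0.322% ± 0.013 untreated (SD, n = 3 each). Of 76 tested, 4 fell (Mrpl53, Mrps14, Mrps28 and Mrps36), or 5.26% against 14.2% of all genes tested. In this list 0 rose, against 7.61% of all genes tested, and the median was −0.07. The median SE of its log2 fold changes was 0.09, against 0.05 over the members and 0.08 over all genes tested. A change of a given size was thus less likely to pass in this list than among the members.

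Of 24 genes of ribosome assembly, 2 fell (8.33%) and 1 rose (4.17%), against 14.2% and 7.61% of all genes tested. The falls were in Polr1a, the large subunit of RNA polymerase I (−0.37, adjusted p = 0.0136), and Pes1, a factor for the large subunit (−0.30, adjusted p = 0.00667). Heatr1, a factor for ribosomal RNA synthesis, rose (0.45, adjusted p = 0.00217). The median of this list was −0.05 and took the other sign under 3 of the 4 scalings. Of 27 genes of the mTOR and S6 kinase pathway, 3 fell (11.1%) and 2 rose (7.41%), near the shares over all genes tested (14.2% and 7.61%), with a median of −0.06. Under the 4 scalings 1 or 2 fell and 2 or 3 rose. Those that fell were the mTOR inhibitors Ddit4 (−0.45, adjusted p = 0.0389) and Sesn1 (−0.36, adjusted p = 0.0148) and the translation repressor Eif4ebp2 (−0.34, adjusted p = 0.0154). Larp1, which binds TOP messages, had 11.2, 10.8 and 11.2 FPKM with GM-CSF, against 9.64, 9.14 and 9.27 FPKM untreated, and rose (0.22, adjusted p = 0.0226), as did the kinase Pik3cd (0.39, adjusted p = 0.00303). These lists were compared with the members by their counts and medians only, and the differences between lists were not tested.

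**Figure D5:**
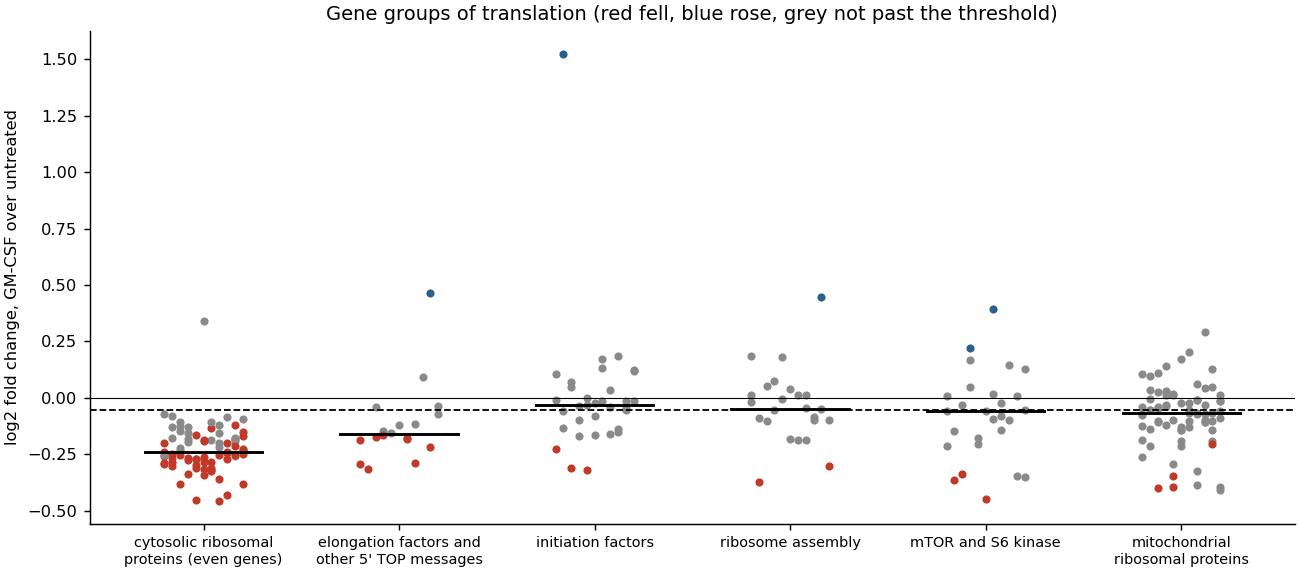
Log2 fold change (GM-CSF over untreated) of single genes in 6 groups; the bar is the median of the group and the dashed line that of all genes tested (−0.05). Red genes fell, blue genes rose and grey genes did not pass; the evenly measured cytosolic ribosomal protein genes sit lowest as a group (median −0.24), and mitochondrial ribosomal protein genes near the line (−0.07).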

How the data were processed

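Polyadenylated RNA of 3 GM-CSF and 3 untreated cultures was sequenced from stranded libraries, per the labels' protocols. Tools listed in the submitters' processing notes are Cufflinks, TopHat, TopHat2 and bcl2fastq 1.8.4, with mm10 as the build and no settings. The authors deposited FPKM for 30374 RefSeq transcripts per library, each with an interval also in FPKM and a coverage signal, per the file headers. Coverage was used for depth only, and read counts were not used here, so no count test was run. Rows were joined by transcript identifier, since their order differs between libraries, and FPKM were summed per symbol and locus. Genes averaging 1 FPKM or more were tested on log2(FPKM + 1) with limma 3.58.1 in R 4.3.3 (trend, two-sided, Benjamini-Hochberg, threshold 0.05), without a covariate. This scale understates the change of low genes. Named members are the 12 largest falls, the 5 most abundant of each subunit, paralogs with their partners and the genes beside the limit of 1 FPKM; of each comparison list, up to 3 that passed or the 2 most abundant. Other genes with values were chosen after their values were seen. The members and lists were chosen with earlier results of these data known. A few genes are not reported here.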

Additional observations from a re-analysis of the deposited data

How the results depend on the processing

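Scaling moved the size of the results and turned the direction of no median or sum of the members. With median-of-ratios factors 31 members fell (17 large, 14 small), with a median log2 fold change of −0.18 (large −0.18, small −0.18) and a summed level of −0.18. With each library at one total 29 fell (15 large, 14 small), with a median of −0.19 (large −0.19, small −0.20) and a sum of −0.19, and 939 of all genes fell. Quantile normalization gave medians of −0.19, −0.19 for large and −0.18 for small subunit genes, and a sum of −0.20. Factors without ribosomal protein genes gave 32 (18 large, 14 small), medians of −0.18, −0.18 and −0.18, and a sum of −0.18. Leaving out each library in turn gave 31 to 46 members that fell (large 16 to 25, small 15 to 21), medians from −0.25 to −0.22 (large −0.26 to −0.22, small −0.25 to −0.22), sums from −0.25 to −0.22, large to small ratios from −0.06 to −0.01, and 881 to 1136 of all genes that fell and 623 to 711 that rose. The other alternatives, among them the pseudocount, the filter, transcript choice and 3 added after the data were seen (even members, Rpl34 with Rpl34-ps1, interval midpoints), gave 39 to 56 members that fell, new calls included, and 0 that rose. Nothing says what a replicate number marks, and same-numbered libraries did not deviate together (r of −0.03, 0.05 and −0.02), so no pairing was taken: with the replicate block 43 members fell, and of all genes 719 rose and 1271 fell. Among the named members 65 calls were lost over all alternatives, 3 were gained and 0 called values changed sign. The cause of these changes was not tested. Short transcripts and shared reads limit single genes, and the deposited values do not show how reads were divided between copies.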

Other observations

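Processed copies of ribosomal protein genes that RefSeq lists as pseudogenes were also measured. Rps19-ps3 had 42.2, 37.0 and 37.6 FPKM with GM-CSF, against 45.6, 49.0 and 48.1 FPKM untreated, and fell by 0.28 on the log2 scale (limma adjusted p = 0.0198). Rpl31-ps12 had 114.3, 124.9 and 132.1 FPKM, against 143.0, 146.6 and 137.6 FPKM untreated, near the level of Rpl31 itself, which had 111.1, 113.6 and 127.1 FPKM, against 143.7, 136.6 and 134.3 FPKM untreated. Rpl31-ps12 did not pass (−0.20, adjusted p = 0.0574) and Rpl31 fell (−0.24, adjusted p = 0.0344). The call of Rpl31 held under 1 of the 4 scalings, and the difference between both changes was not tested. Rps15a-ps4, Rps15a-ps6 and Rplp2-ps1 did not pass (adjusted p = 0.112, 0.0799 and 0.737). Whether reads of a copy and of its parent gene were separated was not tested, so values of Rpl31, Rps15a, Rps19, Rplp2 and Rpl34 carry this uncertainty. The remaining members were not shown to be more certain, and Rps27, Rpl30, Rps27a and Rpl13a were measured unevenly.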
